A study of Mus musculus and Rattus norvegicus with 85 samples.

Results

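The lungs of 10 female rats that inhaled chloroprene at 5 ppm were compared after 15 and after 5 exposure days. The rats were chosen by the concentration, the number of exposure days and the animal number in their labels, and they make up 10 of the 40 rat arrays and of the 85 arrays of the series. The other 30 rat arrays came from rats that breathed 30, 90 or 200 ppm for the same numbers of exposure days, with 5 rats in each of the 8 groups, and the 45 mouse arrays were not used here. All rats were F344/NCrl, an inbred strain that the sample characteristics spell F334/NCrl, and were 10 weeks old when exposure began. They breathed the vapour with their whole body in air for 6 hours a day on 5 days a week. The 5 rats of the shorter exposure (animals 217, 219, 220, 221 and 222, called 5-day rats below) were killed on day 5, and the 5 rats of the longer exposure (animals 225 to 229, called 15-day rats) on day 19. The right lung was kept in RNAlater, and each rat gave 1 Affymetrix Rat230_2 array. Rats that breathed 0 ppm were not analysed here, so that age, the weekends between exposures, the day of handling and the total exposure differ together between both groups and cannot be told apart.

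Chloroprene is a volatile chlorinated diene used to make synthetic rubber, and it causes tumours in rodents after long inhalation. The lung oxidises it to reactive epoxides with cytochrome P450 enzymes, above all Cyp2e1 and the Cyp2f enzymes of the club cells that line the small airways. Epoxide hydrolase and conjugation to glutathione remove these epoxides, and oxidative stress switches on the genes of the transcription factor NRF2. The comparison asks how far the lung transcriptome moved between the shorter and the longer exposure at the lowest rat concentration.

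Before the results, the RNA itself has to be described, because it differed between the groups. The RNA integrity number, a score of intact RNA whose highest grade is 10, was 7.6 in rat 217, 8.3 in rat 219, 8.5 in rat 220, 8.4 in rat 221 and 7.3 in rat 222. It was 9.4 in rat 225, 8.5 in rat 226, 8.6 in rat 227, 9.3 in rat 228 and 9.3 in rat 229. Every 15-day rat lay at or above the best 5-day rat, with means of 9.02 ± 0.432 (SD, n = 5) and 8.02 ± 0.536 (SD, n = 5). The difference of 1 had an exact permutation p of 0.016 (two-sided; 0.0079 is the smallest that 5 against 5 rats allow) and an adjusted p of 0.064 over 4 measures. The absorbance of the RNA at 260 nm as listed in the labels (OD260) ranged from 1.014 in rat 221 to 4.244 in rat 222 among the 5-day rats and from 1.913 to 2.535 among the 15-day rats. For OD260 the exact permutation test gave p = 0.91, for the OD260 to OD280 ratio p = 0.24 and for the difference between 3′ and 5′ control probe sets p = 0.45, with adjusted p of 0.91, 0.48 and 0.6.

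The arrays also shared 1 dominant axis of variation inside the groups. The first component of the deviations from the 8 group means held 64.8% of the variance within groups, and the projection on it is called the between-array score here. It was lowest in rat 217 at -45.2 and highest in rat 222 at 21.1, so that both ends of the 5 ppm range came from 5-day rats. Arrays with a low score had higher signals for the blood cell regulator Nfe2, the neutrophil genes Csf3r, Il1r2 and S100a8, the immediate early genes Egr1 and Fos and the atrial muscle genes Myl7 and Myh6. The genes that counted most in the component lay at the other end. Arrays with a high score had higher signals for Foxp2, Zfp386, Tmf1 and Ogn, with a loading of 0.042 for Foxp2 against -0.023 for Nfe2. Some results below are also given without rats 217 and 222 or with the score as a covariate, both chosen after the data were seen. Because the score is made from the tested signals themselves, it is not an independent measure of the arrays. Pairs of arrays correlated at 0.967 to 0.995 within the 15-day group, 0.911 to 0.992 within the 5-day group and 0.915 to 0.994 between the groups, and no arrays were identical.

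**Figure D1:**
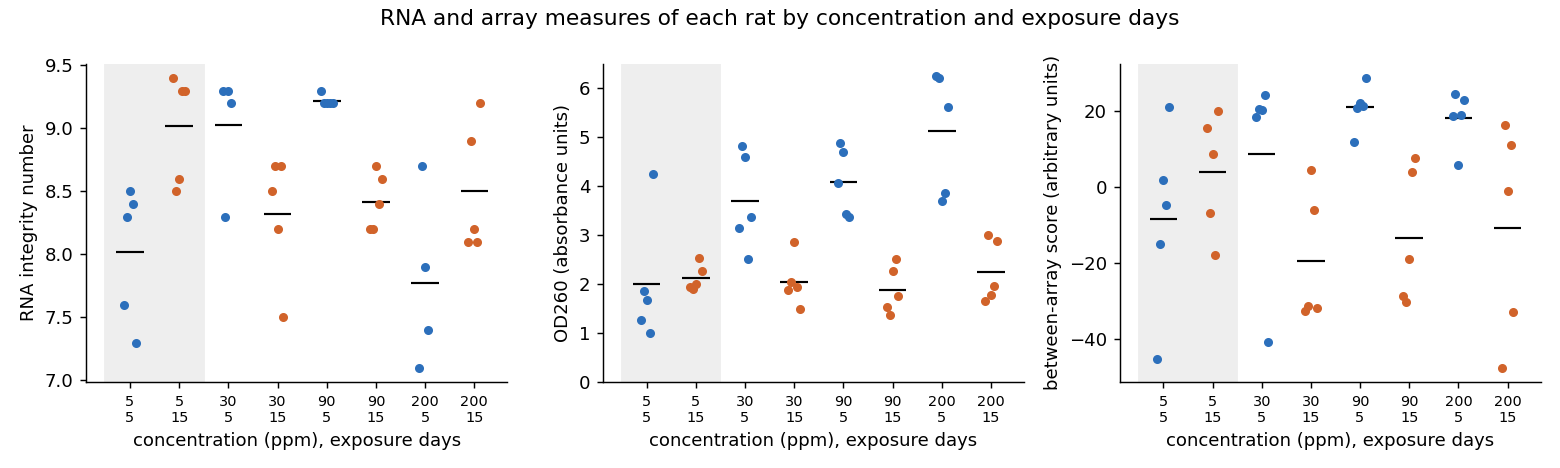
Each point is 1 rat and each bar a group mean; blue marks 5 and orange 15 exposure days, and the shaded columns are the 5 ppm groups. The left panel shows the RNA integrity number, the middle panel OD260 in absorbance units and the right panel the between-array score in arbitrary units; at 5 ppm the mean integrity number is 8.02 at 5 days and 9.02 at 15 days, and rat 217 has a score of -45.2.

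The defining genes of lung were present. The surfactant genes Sftpc, Sftpb and Sftpa1, the club cell secretory protein Scgb1a1, the alveolar type 1 genes Ager and Aqp5, the cilia regulator Foxj1 and the endothelial gene Pecam1 were all above the filter described next. The heart genes Nppa and Tnnt2, the skeletal muscle genes Acta1 and Myh4 and the fat genes Adipoq and Plin1 stayed below it. The mesothelial gene Msln and the red cell gene Alas2 were measured, as was the atrial gene Myh6, at a level that differed widely between rats. Cdh5, Upk3b, Rag1 and Ptcra had no probe set of their symbol alone and were not used here.

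At 5 ppm no gene was called changed between 15 and 5 exposure days. Of 11010 genes with a signal above the 40th percentile of the rat table (6.65 on the log2 scale) on at least 5 arrays, 0 (0%) passed an adjusted p of 0.05 in limma, and the smallest adjusted p was 0.55. At an unadjusted p under 0.05 there were 893 genes (8.11%), 359 of them higher (3.26%) and 534 lower (4.85%) at 15 days. This count was 291 without rat 217, 1829 without rat 222 and 342 with a term for RNA integrity in the model, and 0 genes passed the adjusted threshold in each of these fits. When limma estimated a weight for each array, 952 genes passed, 383 of them higher; the weights ran from 0.0824 to 8.39, with 0.165 for rat 217, 0.303 for rat 222 and 6.59 for rat 227.

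The typical difference was small and about as large as its error. The median change over all genes was -0.036 on the log2 scale, the median size of a change was 0.109 and the median standard error 0.11. Only 24 genes differed by 1.5-fold or more and 2 by 2-fold or more, which were the atrial muscle genes Myl7 and Myh6. For 9554 genes (86.8%) the 95% confidence interval of the change lay inside 1.5-fold in either direction, and for 10767 (97.8%) it lay inside 2-fold. The 5 rats of one group lay entirely to one side of the 5 rats of the other for 159 genes (1.44%), with 95 higher (0.863%) and 64 lower (0.581%) at 15 days. The mean of the 15-day rats was the higher one for 4482 genes (40.7%) and the lower one for 6528 (59.3%).

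Since no gene passed, the 10 genes with the smallest p are given as the strongest candidates, each with an adjusted p of 0.55 (limma, Benjamini-Hochberg). Among those with a higher mean at 15 days, the clearest was Elk4, an ETS factor that works with serum response factor. Its log2 signal was 10.30, 10.78, 10.84, 10.46 and 10.64 in the 5-day rats 217, 219, 220, 221 and 222, and 11.22, 10.85, 11.18, 10.96 and 10.94 in the 15-day rats 225 to 229. The groups did not overlap, by a margin of less than 0.01 between rats 220 and 226, and the difference was 0.42 ± 0.10 (SE). Other probe sets of Elk4 gave 0.21 ± 0.13 and 0.065 ± 0.069.

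Me1, the cytosolic malic enzyme that supplies NADPH and is a known NRF2 target, had the tightest 5-day group. Its signal was 8.71, 8.78, 8.69, 8.73 and 8.64 at 5 days and 9.11, 8.88, 9.08, 9.16 and 8.81 at 15 days. All 15-day rats lay above all 5-day rats, and the difference was 0.30 ± 0.077 (SE), or 1.23-fold, with 0.28 when rats 217 and 222 were left out. A further probe set of Me1 gave 0.17 ± 0.074.

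Sidt1, a membrane protein of the SID1 family linked to nucleic acid transport, read 6.91, 7.55, 7.71, 7.12 and 7.55 at 5 days and 8.07, 7.67, 7.88, 7.77 and 7.80 at 15 days, a difference of 0.48 ± 0.13 (SE). Rats 220 and 226 overlapped, and rat 217 was the lowest. Cep41, a centrosomal protein that acts on the tubulin of cilia, read 7.36, 7.59, 7.77, 7.40 and 7.33 at 5 days and 7.85, 7.75, 7.75, 7.82 and 7.74 at 15 days. The 15-day rats lay within 0.11 of each other, rat 220 fell among them, and the difference of 0.30 ± 0.080 (SE) was 0.12 and -0.11 by its other probe sets, the latter of opposite sign.

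Of the candidates with lower means at 15 days, 3 had groups that did not overlap, against 0.581% of all genes in that direction. Picking genes for a small p in the same rats favours groups that lie apart, so this count is no separate result. Irag2, a membrane protein of the endoplasmic reticulum, read 10.02, 9.92, 9.85, 10.05 and 10.03 at 5 days and 9.57, 9.77, 9.63, 9.75 and 9.78 at 15 days, a change of -0.27 ± 0.074 (SE). Aebp1, a secreted matrix protein of fibroblasts and smooth muscle, read 11.08, 11.00, 10.73, 11.06 and 10.90 at 5 days and 10.24, 10.57, 10.59, 10.71 and 10.67 at 15 days. Its change was -0.40 ± 0.11 (SE), and a further probe set gave -0.49 ± 0.19; rat 225 was the lowest and rat 228 nearly touched rat 220. Camk2b, a subunit of calcium and calmodulin dependent kinase II, read 8.26, 7.97, 7.78, 7.83 and 7.72 at 5 days and 7.41, 7.64, 7.55, 7.60 and 7.46 at 15 days, a change of -0.38 ± 0.10 (SE).

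The remaining candidates had groups that touched or overlapped. Ddhd1, a phospholipase acting on phosphatidic acid, had means of 9.12 ± 0.178 (SD, n = 5) at 5 days and 8.79 ± 0.147 (SD, n = 5) at 15 days. Zbtb14, a zinc finger regulator of transcription, had means of 6.87 ± 0.169 and 6.45 ± 0.265, and rat 226 at 6.89 lay among the 5-day rats. Its signal in every other 15-day rat and in rat 220 lay below the filter level of 6.65. Alpk3, a kinase of muscle, had means of 9.06 ± 0.281 and 8.70 ± 0.10, with rats 217 and 219 far above the other 5-day rats at 9.45 and 9.24. In all 10 genes the sign stayed the same without rats 217 and 222 and with the score as a covariate. This is no separate check, since the genes were picked for a small p in the same rats, which made a change of sign unlikely.

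**Figure D2:**
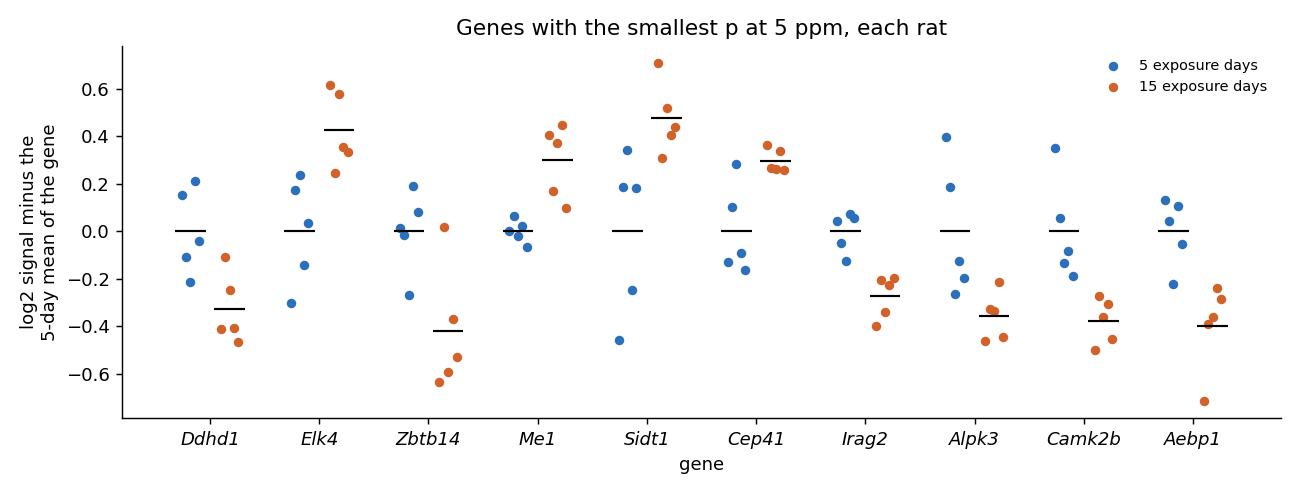
Each point is the log2 signal of 1 rat minus the mean of the 5-day rats for that gene (blue 5, orange 15 exposure days), and bars are group means. The groups do not overlap for Elk4, Me1, Irag2, Camk2b and Aebp1, while every mean difference is below 0.5 on the log2 scale. Picking the genes for a small p in the same rats favours groups that lie apart, and 1.44% of all genes do not overlap.

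The genes of known pathways and cell types were then read from 45 lists holding 1265 genes, of which 861 were measured. None of these 861 genes passed the adjusted threshold, and 78 had an unadjusted p under 0.05, against 8.11% of all genes. The list medians ran from -0.326 to 0.265, and 34 of the 45 lay within 0.1 of no change. Since no list had a called gene, the members named below were picked after their values were seen, mostly for a small p, and each had an adjusted p of 0.59 or more. In whole lung, fewer cells of a type and less RNA per cell cannot be told apart.

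**Figure D3:**
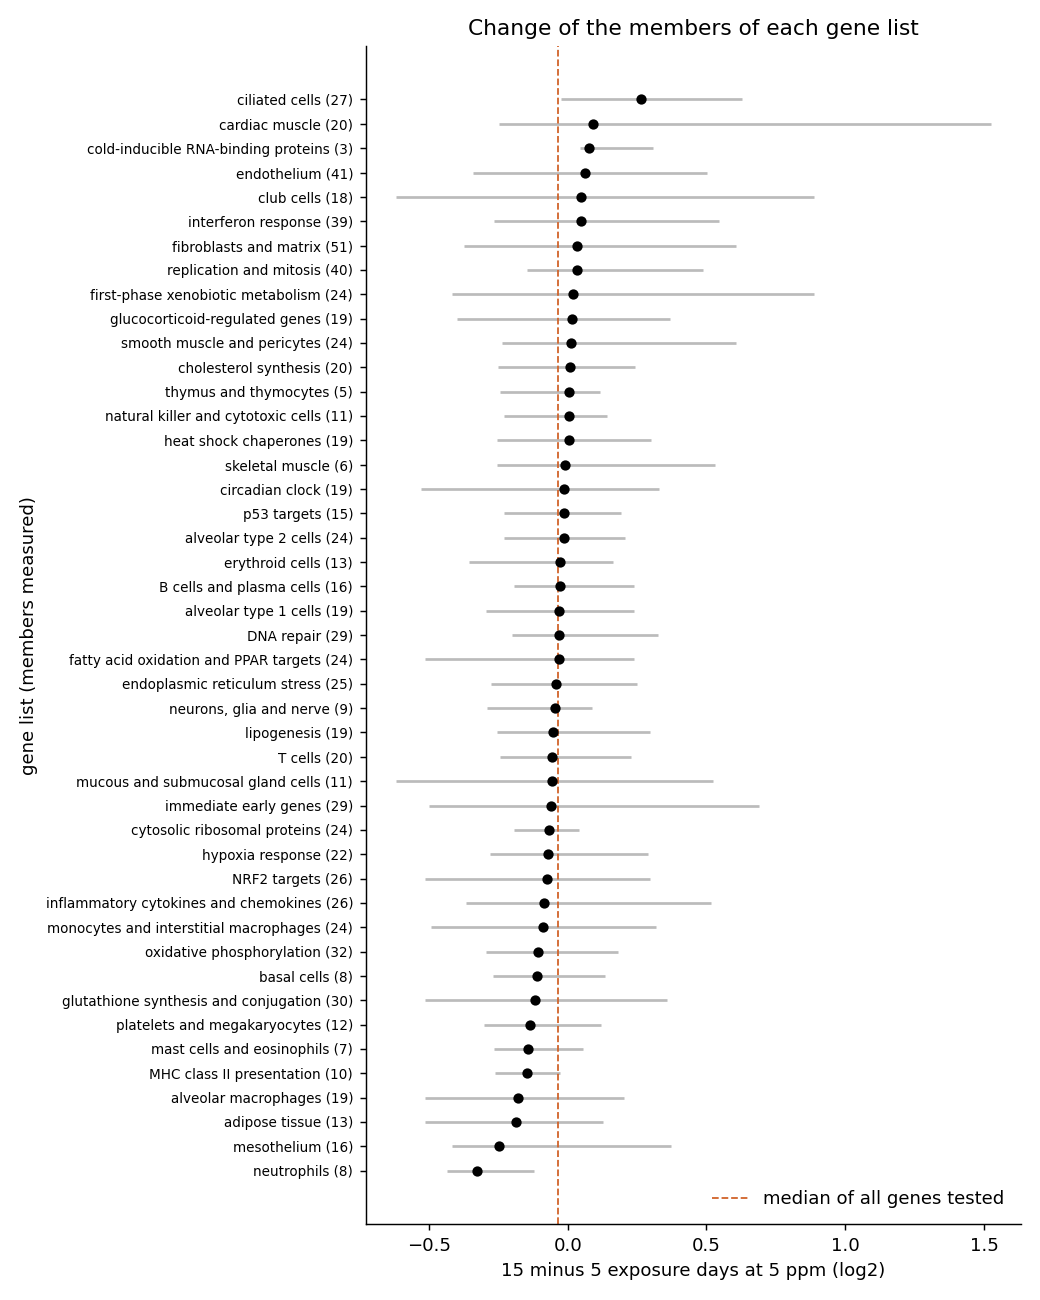
Points are the median change (15 minus 5 exposure days at 5 ppm, log2) of the members of each list, grey lines run from the lowest to the highest member, and the number of measured members stands in brackets. The dashed line is the median of all genes tested, -0.036; ciliated cells have the highest median, 0.265, and neutrophils the lowest, -0.326.

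Genes of ciliated cells had the highest median of the lists. These cells sweep mucus up the airways with motile cilia, whose axonemes carry dynein motors, tektins and radial spokes and are built under the regulators Foxj1 and the RFX factors. Of 56 listed genes, 29 were on the array and 27 were measured, and 25 of the 27 had the higher mean at 15 days against 40.7% of all genes. Of the 27, 7 had an unadjusted p under 0.05 in that direction against 3.26% of all genes, 0 the other way, and 0 passed the adjusted threshold. The rats did not overlap for 3 of them, Dynlrb2, Tekt1 and Dnali1, against 0.863% of all genes in that direction.

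The largest difference of the list was that of Ak7, an adenylate kinase of the ciliary axoneme. Its signal was 7.08, 7.69, 7.85, 7.50 and 8.06 in the 5-day rats and 8.37, 7.98, 8.40, 8.27 and 8.29 in the 15-day rats, a difference of 0.63 ± 0.19 (SE). Rat 222 lay above rat 226, and all others were apart. Dynlrb2, a light chain of dynein, read 10.96, 11.16, 11.18, 10.90 and 11.35 at 5 days and 11.40, 11.38, 11.47, 11.59 and 11.44 at 15 days, with no overlap and a difference of 0.35 ± 0.14 (SE).

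Tekt1, a filament protein of the axoneme, read 8.73, 8.82, 8.83, 8.58 and 8.87 at 5 days and 9.01, 9.07, 9.06, 9.31 and 8.97 at 15 days, a difference of 0.32 ± 0.14 (SE). Dnali1, an inner arm dynein light chain, read 9.35, 9.35, 9.41, 9.04 and 9.26 at 5 days and 9.45, 9.49, 9.64, 9.83 and 9.43 at 15 days, a difference of 0.29 ± 0.14 (SE). In both, rat 221 was the lowest and rat 228 the highest of the 10. The axonemal genes Ccdc113, Cfap45, Dnah1 and Dnai1 differed by 0.48, 0.27, 0.36 and 0.32. The regulators differed less clearly, with 0.14 ± 0.12 (SE) for Foxj1, 0.13 ± 0.11 for Rfx2 and 0.41 ± 0.34 for Rfx3. The 2 members with lower means, Tppp3 at -0.022 and Tekt2 at -0.025, had errors far above their change.

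Averaged over the 27 genes, the deviation from the mean of the 10 rats was -0.21, -0.091, -0.068, -0.21 and -0.005 in the 5-day rats and 0.12, -0.020, 0.18, 0.21 and 0.093 in the 15-day rats. Rats 222 and 226 were the only pair out of order. The list median of 0.265 was 0.26 without rats 217 and 222, 0.234 with the score as a covariate, 0.175 with a term for RNA integrity and 0.222 over the 5 ppm rats of RNA integrity 8.3 to 8.6. At 30, 90 and 200 ppm the list median was 0.129, 0.106 and 0.079, beside 0.073, 0.132 and 0.115 for all genes. The part that RNA integrity had in the difference at 5 ppm was not tested beyond these fits.

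Genes of the mesothelium, the sheet that covers the lung surface, leaned the other way. Of 21 listed genes, 16 were measured, 15 of the 16 had lower means at 15 days against 59.3% of all genes, and the median was -0.248. Of the 16, 2 had an unadjusted p under 0.05 with a lower mean, against 4.85% of all genes. With a higher mean there was 1, the peptide-processing enzyme Cpe at 0.37 ± 0.15 (SE), against 3.26% of all genes. Msln, the surface protein mesothelin, read 11.52, 11.03, 11.11, 11.45 and 10.87 at 5 days and 11.28, 10.89, 10.82, 10.47 and 10.63 at 15 days. Rats 217 and 221 were the highest and the groups overlapped, with a change of -0.38 ± 0.20 (SE) and an adjusted p of 0.62. Rat 221 was also the highest or level with the highest for Upk1b, Lrrn4 and the mesothelial transcription factors Wt1 and Bnc1, whose changes were -0.42, -0.31, -0.33 and -0.41. The list also holds Krt8, Krt18 and Krt19, keratins that other lung epithelia express, at -0.21, -0.29 and -0.16.

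Genes of neutrophils had the lowest list median, -0.326, over the 8 of 24 listed genes that were measured. All 8 had lower means against 59.3% of all genes, and 2 of them, Alox5ap and Padi4, had an unadjusted p under 0.05 against 4.85%. Alox5ap, which serves leukotriene synthesis, was the only member whose rats did not overlap (0.581% of all genes in that direction), with 10.80, 10.39, 10.18, 10.29 and 10.18 at 5 days and 9.94, 10.15, 9.92, 10.08 and 9.86 at 15 days. S100a8, a calcium-binding protein that fills the neutrophil cytosol, read 11.70, 10.64, 11.16, 10.78 and 11.00 at 5 days and 10.96, 11.41, 10.10, 10.85 and 10.25 at 15 days, a change of -0.34 ± 0.31 (SE) with wide overlap. Rat 217, the 5 ppm array with the lowest score, was the highest of the 10 rats for every one of these genes except Mmp8. The list median was -0.194 without rat 217 and -0.195 with the score as a covariate.

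Other lists of immune genes had medians nearer to 0. All 10 measured genes of antigen presentation by MHC class II were lower against 59.3% of all genes, with a median of -0.148. The changes ran from -0.027 for the invariant chain Cd74 to -0.26 for RT1-Db1, a class II beta chain, and 3 had an unadjusted p under 0.05 against 4.85% of all genes. The median was -0.068 without rat 217, -0.227 without rat 222 and -0.065 with the score as a covariate. Genes of alveolar macrophages had a median of -0.179 over 19 measured genes, 3 of them with an unadjusted p under 0.05, all lower (4.85% of all genes), among them the lipid droplet protein Cidec at -0.41 ± 0.14 (SE) and the tetraspanin Cd9 at -0.26 ± 0.081. That median was -0.105 without rat 228, -0.082 with array weights and -0.205 with the score as a covariate. Lower means were found for 9 of 16 measured B cell genes, 15 of 20 T cell genes and 5 of 11 genes of natural killer cells, against 59.3% of all genes. The B cell gene Ms4a1 and the T cell gene Cd3e changed by -0.035 ± 0.23 (SE) and -0.12 ± 0.19. Genes of the interferon response had a median of 0.049, between -0.074 and 0.165 over 25 fits. None of the 39 measured had an unadjusted p under 0.05, against 8.11% of all genes.

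**Figure D4:**
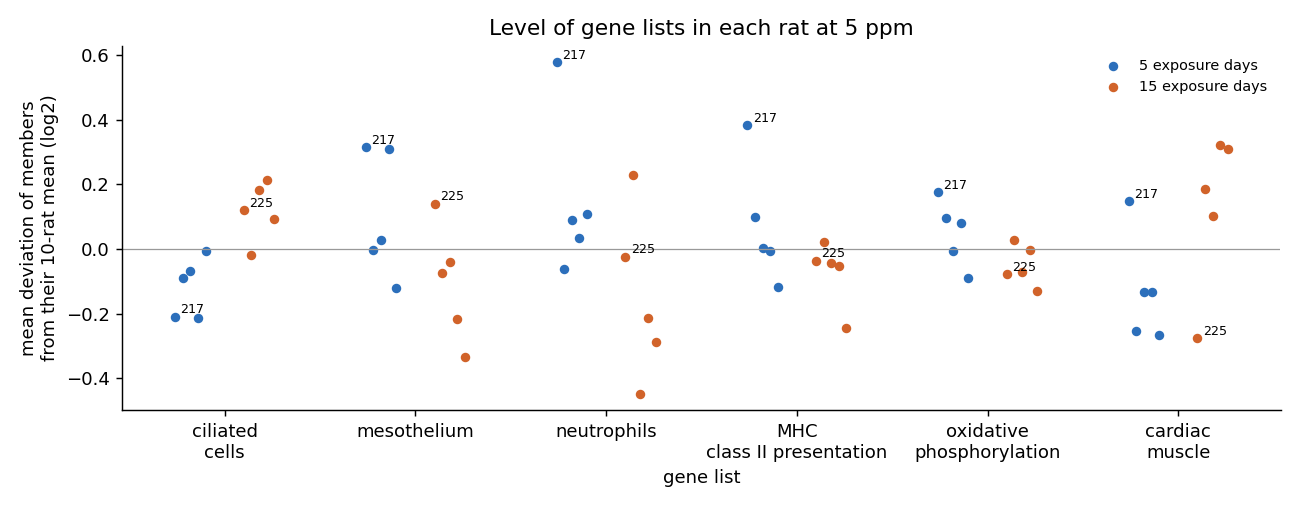
Points give, for each of the 10 rats at 5 ppm (blue 5, orange 15 exposure days), the mean over a list's measured genes of the log2 deviation from their 10-rat mean; rats 217 and 225 are numbered. Ciliated genes are nearly apart between the groups, rat 217 stands highest for neutrophil genes at 0.58 and MHC class II genes at 0.38, and rat 225 is lowest for cardiac genes at -0.28.

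No enzyme that handles chloroprene passed the test, and the largest difference was that of a P450. Cyp2f4, the rat P450 of club cells, read 9.06, 10.45, 10.18, 8.99 and 10.58 in the 5-day rats and 10.49, 10.58, 10.70, 11.26 and 10.66 in the 15-day rats. Rats 217 and 221 were more than 1 unit below the other 5-day rats, and rat 222 lay above rats 225 and 226. The difference of 0.89 ± 0.38 (SE), or 1.85-fold, had a 95% interval of 0.11 to 1.66 and an adjusted p of 0.61. It was 0.87 without rats 217 and 222, a fit that kept the low rat 221 and left out the highest 5-day rat. The difference without both low rats, 217 and 221, was not tested. Cyp2e1, the other P450 of the pathway, changed by -0.10 ± 0.13 (SE), and Ephx1, the epoxide hydrolase, by 0.17 ± 0.12. Aldh1a1, which oxidises retinal and other aldehydes in club cells, read 12.45, 12.68, 12.71, 12.59 and 12.70 at 5 days and 12.86, 12.75, 12.78, 12.87 and 12.89 at 15 days, without overlap, at 0.20 ± 0.071 (SE). Over 24 measured genes of oxidative metabolism the median was 0.019. Of the 24, 2 had an unadjusted p under 0.05, both higher, against 3.26% of all genes. Scgb1a1 differed by 0.073 ± 0.038 (SE) and Sftpc by 0.013 ± 0.034, both at signals near the highest of the table, 15.1.

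Genes of the glutathione and NRF2 response did not share a direction. The glutamate cysteine ligase subunits Gclc and Gclm differed by 0.12 ± 0.084 (SE) and 0.096 ± 0.095, and the quinone reductase Nqo1 by 0.060 ± 0.10. Haem oxygenase Hmox1 changed by -0.28 ± 0.14 (SE), with rat 217 highest at 9.66. Of 30 measured genes of glutathione synthesis and conjugation, 23 had lower means against 59.3% of all genes, and the median was -0.119. Of the 30, 5 had an unadjusted p under 0.05 with lower means and 1 with a higher mean, against 4.85% and 3.26% of all genes. The smallest p were those of the transferases Mgst2 at -0.21 ± 0.078 (SE) and Gstt2 at -0.30 ± 0.13. Glutathione reductase, Gsr, had the lowest change of this list and of the NRF2 targets, at -0.51 ± 0.23 (SE). The median of the 30 genes was -0.046 without rat 217, -0.074 without rat 229 and -0.030 with the score as a covariate. The 26 measured NRF2 targets had a median of -0.076, with 2 higher and 3 lower at an unadjusted p under 0.05 (3.26% and 4.85% of all genes). That median was -0.009 without rat 217, -0.047 without rat 229, -0.121 without rat 222 and 0.014 with the score as a covariate.

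Mitochondrial genes leaned lower by a small amount. Of 32 measured subunits of oxidative phosphorylation, 27 had lower means against 59.3% of all genes, the median was -0.108 and 5 had an unadjusted p under 0.05, all lower, against 4.85%. The median was -0.118 without rats 217 and 222 and -0.075 with the score as a covariate. Cox8a, a subunit of cytochrome oxidase, read 12.79, 12.66, 12.40, 12.59 and 12.33 at 5 days and 12.12, 12.51, 12.21, 12.27 and 12.25 at 15 days, a change of -0.28 ± 0.089 (SE). Rat 226 overlapped the 5-day rats. Of 24 measured cytosolic ribosomal proteins, 20 had lower means against 59.3% of all genes, with a median of -0.067 and no member past 0.2 in size.

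Clock genes follow the time of day and glucocorticoid targets follow stress hormones, and none of those named passed the test. The 19 measured clock genes had a median of -0.013, with changes from -0.528 to 0.33. Of the 19, 2 were lower and 0 higher at an unadjusted p under 0.05, against 4.85% and 3.26% of all genes. Per1, Per2, Per3 and Dbp, which swing through the day under the clock, differed by 0.097 ± 0.17 (SE), 0.055 ± 0.20, 0.017 ± 0.090 and -0.13 ± 0.18. A further probe set of Per2 gave -0.078 ± 0.065, of opposite sign. Bmal1, the driver of the clock, differed by 0.060 ± 0.18, its partner Npas2 by 0.10 ± 0.15, and the repressor Nr1d1 by -0.24 ± 0.16. Nr1d2 differed by 0.33 ± 0.28, and rat 217 at 9.19 lay nearly 1 unit below every other rat; the difference was 0.045 without that rat and 0.049 with the score as a covariate. Of the glucocorticoid targets, Tsc22d3 changed by -0.31 ± 0.19 (SE) and Sgk1 by 0.015 ± 0.096. Fkbp5, a further target, read 8.57, 8.64, 9.35, 9.52 and 9.78 in the 5-day rats and 8.23, 8.35, 8.40, 9.25 and 9.64 in the 15-day rats. Both groups spanned more than 1 unit, and the change was -0.40 ± 0.44 (SE).

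No marker of growth, DNA damage or tissue structure passed the test. The topoisomerase Top2a differed by 0.16 ± 0.13 (SE), and the median of 40 measured genes of replication and mitosis was 0.032. Of the 40, 2 had an unadjusted p under 0.05, Aurkb and Stmn1, both higher, against 3.26% of all genes. Mki67 lay below the filter. The p53 target Cdkn1a differed by 0.034 ± 0.10, and the 15 measured p53 targets had a median of -0.014. The collagens Col1a1 and Col3a1 differed by 0.15 ± 0.14 and 0.045 ± 0.11, with the lowest Col1a1 signal, 9.29, in rat 222. In smooth muscle, 4 of 24 measured genes had an unadjusted p under 0.05, all higher, against 3.26% of all genes, though the median was 0.013 and ran from -0.064 without rat 222 to 0.10 without rat 217. Trpc6, a cation channel, read 5.80, 6.37, 6.08, 6.46 and 6.20 at 5 days and 6.85, 6.50, 6.71, 6.69 and 6.86 at 15 days without overlap, and the others were Myh11, Mylk and Postn at 0.42, 0.23 and 0.61.

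The widest spread of any named gene was in atrial muscle genes, which in rodents are made by the sleeve of heart muscle around the pulmonary veins. Myh6, a cardiac myosin heavy chain, read 6.58, 5.39, 5.87, 5.89 and 5.72 in the 5-day rats and 4.78, 7.34, 7.19, 7.98 and 8.02 in the 15-day rats. Myl7, the atrial myosin light chain, read 6.71, 4.54, 5.94, 5.93 and 5.51 at 5 days and 4.60, 7.69, 7.49, 8.26 and 8.21 at 15 days. In both genes, 4 of the 15-day rats lay above all 5-day rats, and rat 225 was near or at the bottom. The differences of 1.18 ± 0.69 and 1.52 ± 0.80 (SE) had adjusted p of 0.63 and 0.62. For Myh6, the 5-day rats at 5 ppm had the lowest mean of all rat groups, and each lay below the filter level of 6.65. Their mean was 5.887, against 7.515 to 8.215 in the 5-day groups at the higher concentrations. At 15 days the Myh6 mean was 7.063 at 5 ppm and 7.431 to 8.04 at the higher concentrations. The Myh6 difference thus went with a low 5-day group, and not with a high 15-day group. The list of cardiac genes had a median of 0.092 over 20 measured genes. At an unadjusted p under 0.05 none was higher and 1, Cox7a1, was lower, against 3.26% and 4.85% of all genes. Leaving out 1 rat moved the list median to between 0.046 without rat 228 and 0.171 without rat 217, with 0.05 without rat 220 and 0.139 without rat 227.

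The same interval of exposure was also measured in rats at the 3 higher concentrations. There 784 genes (7.12%) passed at 30 ppm, with 369 higher and 415 lower at 15 days. At 90 ppm 1209 (11.0%) passed, with 531 higher and 678 lower. At 200 ppm 14 (0.127%) passed, with 11 higher and 3 lower. With a term for RNA integrity, over the 38 arrays that have one, these counts became 1, 1 and 0, with 1526, 3312 and 2704 genes at an unadjusted p under 0.05. The median change over all genes moved little in that fit, to 0.064, 0.128 and 0.115 from 0.073, 0.132 and 0.115 at 30, 90 and 200 ppm. The difference between concentrations was tested as an interaction, the change at 5 ppm minus the mean change at 30, 90 and 200 ppm. It passed for 4492 genes (40.8%), of which 1784 (16.2%) were higher and 2708 (24.6%) lower at 5 ppm, and 1264 of the 4492 differed by 1.5-fold or more. Against single concentrations the interaction passed for 423 genes at 30 ppm, 0 at 90 ppm (5205 at an unadjusted p under 0.05, smallest adjusted p 0.054) and 1259 at 200 ppm.

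The largest of these differences came from genes that were lower after 15 days at the higher concentrations and not at 5 ppm. Zfp386, a zinc finger protein, changed by 0.31 ± 0.51 (SE) at 5 ppm and by -2.26, -2.21 and -1.43 at 30, 90 and 200 ppm, an interaction of 2.28 ± 0.59 with an adjusted p of 0.011. In single rats at 5 ppm it ran from 7.06 in rat 217 to 9.27 in rat 222 at 5 days and from 7.26 in rat 228 to 9.21 in rat 229 at 15 days, so that both groups spanned about the same range. Mmrn1, a multimerin of platelets and endothelium, Zbtb41, a zinc finger protein, Ogn, a matrix proteoglycan, and Ppp4r3b, a subunit of protein phosphatase 4, had interactions of 2.02, 2.02, 1.97 and 1.96. Zfp386, Zbtb41, Ogn and Ppp4r3b are among the genes with high signals at a high between-array score, as is Mmrn1. With the score as a covariate, the change at 5 ppm became -0.19 for Zfp386, -0.14 for Ogn and -0.14 for Ppp4r3b, and it stayed positive at 0.077 for Mmrn1 and 0.25 for Zbtb41, which were 0.50 and 0.72 without it.

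In the other direction stood genes that were higher after 15 days at higher concentrations and lower at 5 ppm. Calml3, a calmodulin-like protein of epithelia, read 9.0, 8.28, 8.22, 9.49 and 7.94 in the 5-day rats and 7.74, 8.46, 7.72, 7.09 and 7.56 in the 15-day rats, a change of -0.87 ± 0.27 (SE). It changed by 1.03, 0.55 and 0.87 at 30, 90 and 200 ppm, and the interaction was -1.69 ± 0.31 with an adjusted p of 0.0045. Slc7a9, a cystine transporter subunit, changed by -0.88 at 5 ppm, the lowest value of any gene, and by 0.062, 0.70 and 0.94 at the others. Gsr, the glutathione reductase, Alas2, the first enzyme of haem synthesis in red cells, and Plau, the urokinase, had interactions of -1.16, -1.15 and -1.14.

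**Figure D5:**
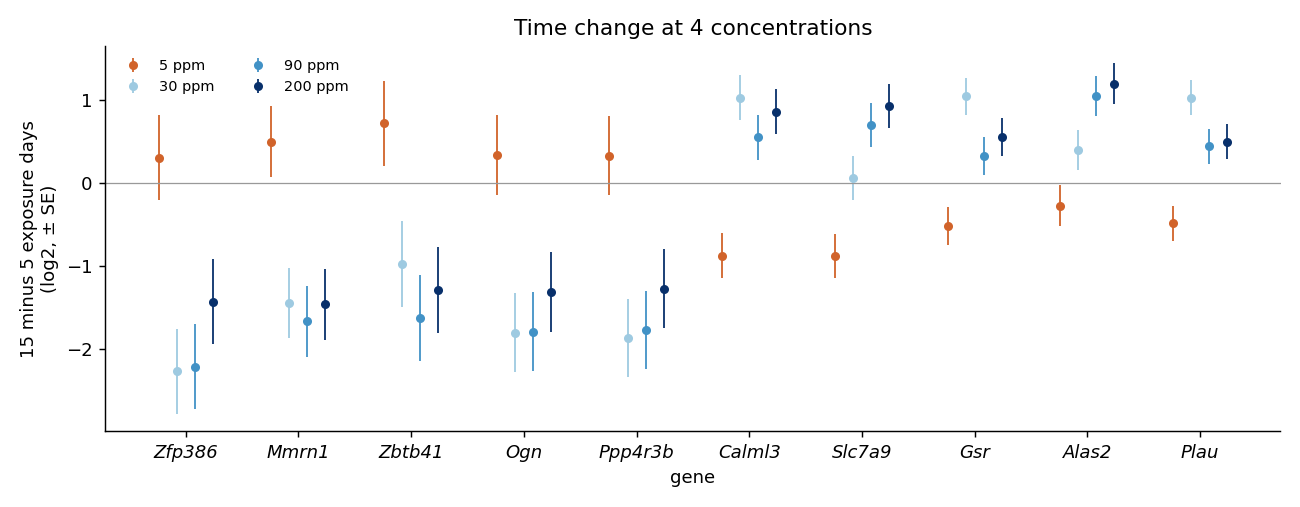
Points are the change from 5 to 15 exposure days (log2, bars ± SE from the fit, 5 rats a group) at 5 ppm (orange) and at 30, 90 and 200 ppm (light to dark blue) for the 5 genes with the largest interaction in each direction. At 5 ppm the first 5 genes lie between 0.31 and 0.72 and the last 5 between -0.88 and -0.27, each on the other side of 0 from the higher concentrations.

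The RNA and array measures of the rats also changed differently between the concentrations. The mean RNA integrity number was higher by 1 at 15 days at 5 ppm, where it was 8.02 and then 9.02, and lower at 15 days at 30 ppm (9.02 and 8.32) and 90 ppm (9.22 and 8.42), while at 200 ppm it was 7.78 and 8.5. The mean score went from -8.4 at 5 days to 3.9 at 15 days at 5 ppm, and from 8.7 to -19.4, 21 to -13.2 and 18.2 to -10.8 at 30, 90 and 200 ppm. Mean OD260 was 2.02 and 2.13 at 5 ppm, whereas it was 3.69 and 2.05, 4.09 and 1.89, and 5.13 and 2.26 at the others. With the RNA integrity number, the score or log2 OD260 as a covariate, 0 genes passed the interaction in limma, with 3561, 1582 and 795 at an unadjusted p under 0.05. The score was drawn from the same signals that were tested, so that a loss with it was partly fixed in advance. The median interaction over all genes was -0.159 without a covariate and -0.15 with RNA integrity, whereas it was 0.014 with the score and -0.026 with log2 OD260. The interaction passed for 370 genes without rat 217, 2062 without rat 229 and 2710 without rat 225, and for 8008 with array weights. Where the interaction was lost, the change at 5 ppm was not shown to differ from that at the other concentrations.

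Among the lists, the interaction was counted as a description beside its background. Subunits of oxidative phosphorylation were lower at 5 ppm in 16 of 32 and higher in 2. Lower values were also found for mesothelial genes in 10 of 16, against 24.6% of all genes in each case, and 0 mesothelial genes were higher. Other lists had similar shares, among them erythroid (7 of 13), MHC class II (5 of 10) and glutathione genes (13 of 30), with 1, 0 and 0 higher. Mesothelial genes had a median of 0.02, 0.282 and 0.361 at 30, 90 and 200 ppm. Msln had an interaction of -0.74 ± 0.23 (SE) with an adjusted p of 0.018. Of the ciliated genes, 6 of 27 were higher and 0 lower at 5 ppm, against 16.2% and 24.6% of all genes, with Ak7 at 0.86 and Rfx3 at 1.30. Among clock genes, Nr1d2 differed by 1.10 ± 0.33 (SE) with an adjusted p of 0.016; its signal was also the lowest in rat 217. Each of these counts rests on the fit without a covariate, in which 40.8% of all genes passed.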

How the data were processed

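Total RNA of the right lung was measured on Affymetrix Rat230_2 arrays, labelled with biotin per the labels. The deposited rat table holds the authors' log2 signals, which were used as given; the summarisation and normalisation methods are not given in the sources used here. Values run from 3.07 to 15.1. GEO's annotation of the platform named 20832 of 31099 probe sets by 1 symbol, 436 by several and 9831 by none; only the first were used, 1 probe set per gene (the highest mean).

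From these signals, limma 3.58.1 in R 4.3.3 fitted the 8 rat group means over 40 arrays with 32 residual degrees of freedom, with moderated two-sided tests and Benjamini-Hochberg adjustment over 11010 genes. The filter kept genes above the 40th percentile of the table on at least 5 arrays. Fits were tested on simulated data. Arrays carry no molecule counts, so that their number limits the precision. Every rat is a separate animal, and no number pairs rats.

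The comparison, gene lists and named genes were chosen with earlier results of these data known. Named genes were to be the largest called changes; as none passed, the 10 with the smallest p, 33 genes of lung, clock, stress and tissue function, and the 5 largest interactions in each direction were taken. Of the 33, Zbtb16 and Hba-a2 had no probe set of 1 symbol, and Mki67 and Adipoq fell below the filter. Alternatives were other filters, normalisations, gene summaries, covariates, variance models, array weights and leaving out each rat at 5 ppm; the score, OD260, leaving out 2 rats together and testing every probe set were added after seeing the data.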

Additional observations from a re-analysis of the deposited data

Results flagged for a closer look

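At 5 ppm, 112 sets of 5 rats were searched for a rat standing apart from its group, and 7 were found; chance alone flags about 1 in 20. In the 5-day group these were the OD260 of 4.244 in rat 222, the Hmox1 signal of 9.66 in rat 217 and the Col1a1 signal of 9.29 in rat 222. In the 15-day group they were Cyp2f4 at 11.26 and Gclm at 8.82 in rat 228, Col3a1 at 13.43 in rat 225, all highest of their group, and Myh6 at 4.78 in rat 225, the lowest.

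The time change at 5 ppm differed from the mean of the higher concentrations, by the limma interaction at an adjusted p under 0.05, for 4492 genes. Among the named genes it was higher at 5 ppm for Zfp386 (2.28), Mmrn1 (2.02), Zbtb41 (2.02), Ogn (1.97), Ppp4r3b (1.96), Nr1d2 (1.1), Elk4 (0.6), Sidt1 (0.59) and Scgb1a1 (0.12). It was lower for Calml3 (-1.69), Slc7a9 (-1.44), Gsr (-1.16), Alas2 (-1.15), Plau (-1.14), Msln (-0.74), Zbtb14 (-0.74), Camk2b (-0.66), Ddhd1 (-0.54), Alpk3 (-0.44), Hmox1 (-0.42), Aebp1 (-0.32) and Irag2 (-0.26). None of these passed with RNA integrity, the score or log2 OD260 in the model, where the count over all genes was 0 each time (3561, 1582 and 795 at an unadjusted p under 0.05). The fit with the score is no separate check, since the score comes from the same signals.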

How the results depend on the processing

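The count of 0 genes at 5 ppm held under every alternative run except array weights, which gave 952 genes and 61 list genes. Without each 5 ppm rat in turn it was 0 to 0. With unadjusted p under 0.05 the main fit had 893 genes, no filter 1187, the 10 arrays alone 732 and only the rats of RNA integrity 8.3 to 8.6 (3 against 2 rats) 107. The interaction count of 4492 became 0 with RNA integrity, 0 with log2 OD260 and 0 with the score, drawn from the same signals. It was 0 over the 5 ppm rats of RNA integrity 8.3 to 8.6 (2760 unadjusted) and 30 with the 3′ to 5′ difference. The count was 2276 without rats 217 and 222, 8008 with array weights and 8243 over every probe set that is not a control (31042). Without each 5 ppm rat in turn it was 370 to 6349. Rats at 30, 90 and 200 ppm were not left out, among them rat 239 at 30 ppm with the lowest array weight, 0.0824. With the RNA integrity number, the counts at 30, 90 and 200 ppm fell to 1, 1 and 0, and the interactions with 30 and 200 ppm to 0 and 0 (922 and 3980 unadjusted), while the median changes of 0.073, 0.132 and 0.115 became 0.064, 0.128 and 0.115 and the median interactions of -0.122 and -0.155 became -0.11 and -0.15. The cause of these shifts was not tested. Of the 10 genes with the smallest p, 9 passed with array weights, and 1 sign differed, Cep41 by another probe set. The other named genes changed sign in 47 pairs of a gene and an alternative, in none with a call, and came to pass in 4 such pairs. The 10 interaction genes kept their sign, while 52 of their values no longer passed. The signs of the list medians held in all 25 fits for ciliated cells (0.175 to 0.281), mesothelium (-0.322 to -0.175) and neutrophils (-0.391 to -0.127). This was not particular to them, since other lists kept their sign too. Among those were adipose tissue (-0.221 to -0.09), oxidative phosphorylation (-0.133 to -0.074) and endothelium (0.01 to 0.115). The fits with no filter, with only the 10 arrays at 5 ppm and with another variance model repeated the medians of the main fit. No paired analysis was possible because every rat has its own number. Genes under the filter, such as Mki67, have no test here.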

Other observations

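Some genes outside the lists and rules stood out and were chosen after their values were seen. Of the 159 genes whose rats did not overlap, the largest change was that of Eml2, a microtubule-associated protein, at -0.75 ± 0.21 (SE; limma, adjusted p 0.55). Sox2, the transcription factor of the proximal airway epithelium, was higher in every 15-day rat than in any 5-day rat, at 0.43 ± 0.17 (SE). Mlf1, which ciliated cells express, differed by 0.60 ± 0.25 (SE) with overlap between the rats. None of these passed the adjusted threshold.

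Other lists were also counted. Of 41 measured endothelial genes, 29 had the higher mean at 15 days against 40.7% of all genes, and 3 had an unadjusted p under 0.05, all higher, against 3.26%. The list median was 0.062, with 0.01 without rat 222, 0.01 without rat 228, 0.107 without rat 217 and 0.115 with the score as a covariate; the semaphorin receptor Nrp1 differed by 0.43 ± 0.16 (SE) and the angiopoietin receptor Tek by 0.24 ± 0.098. Of 20 measured genes of cholesterol synthesis, the enzymes Sc5d and Cyp51 had higher means, by 0.23 ± 0.075 (SE) and 0.24 ± 0.090, and Ebp a lower one, at -0.25 ± 0.099, with a list median of 0.009. Erythroid genes had a median of -0.027 over 13 measured genes and heat shock chaperones 0.004 over 19.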
